A study of Rattus norvegicus with 4 samples.

Results

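Transcripts of 10 genes of the AMPA receptor complex and its partners were examined in cultured rat cortical neurons, out of 17245 genes named on the arrays. They are the receptor subunit genes Gria1, Gria2, Gria3 and Gria4, the auxiliary subunit gene Cacng8, the endosomal sorting genes Nsg1 and Nsg2, and the noelin genes Olfm1, Olfm2 and Olfm3. The set was selected on measured values: Nsg1 and Olfm3 had been picked for their large differences in the comparison described here, and the other genes were added as relatives or partners of their products. Differences of the 10 genes between the groups are therefore a description: they are given with an error, and no count of calls among the 10 serves as evidence. A gene was represented by the brightest probe set annotated to it alone. Gria3 has a second one, and the other 9 genes have 1 each.

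AMPA receptors are glutamate-gated cation channels that carry most fast excitatory transmission in the cortex. Each channel is an assembly of GluA subunits, encoded by the Gria genes, surrounded by auxiliary subunits such as the TARP family to which Cacng8 (gamma-8) belongs. The GluA2 subunit, in its RNA-edited form, keeps calcium from passing. Receptors move between the cell surface and endosomes, where the small membrane protein encoded by Nsg1 (NEEP21) takes part in sorting those that contain GluA2 back to the surface. Noelins are secreted glycoproteins with an olfactomedin domain that bind the outer face of AMPA receptors.

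The neurons came from Sprague Dawley rat embryos (E18) and carried pLL3.7 lentivirus, a vector that makes short hairpin RNA (shRNA) in non-dividing cells. Of 4 arrays, 2 held total RNA from neurons given a control shRNA (labelled wild type) and 2 from neurons given PHF6shRNA-2, a hairpin against the chromatin-associated protein PHF6 (labelled PHF6 knockdown), all collected 5 days after infection. They are called control arrays and PHF6 arrays here. No other treatment was given. All results rest on 1 hairpin. The labels call the arrays biological duplicates without saying whether they came from separate cultures. The errors measure the spread between arrays, and how much of it is technical was not tested. Each ± on a difference is limma's SE, which pools that spread with the spread of all genes. Phf6 itself read 32.8 and 34.3 intensity units under control shRNA and 34.4 and 31.3 under PHF6 shRNA, close to background in both groups, and this probe set cannot serve to verify the labels.

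A background level was taken from 206 genes for olfactory or vomeronasal receptors, as their 95th percentile on each array, and lay between 32.5 and 41.2 intensity units on the 4 arrays. Neuron markers were above it on all arrays for 9 of 9 genes, with summed intensities of 12299 and 12331 (control) against 10939 and 11204 (PHF6 shRNA). Of their differences 8 were negative and 1 positive. In 5 of the 9 both PHF6 arrays were lower than both control arrays (21.7% of all genes were lower without overlap). Of 10 microglia markers 7 were above it on no array. Astrocyte markers summed to 842 and 1494 in the control arrays and to 1179 and 1824 in the PHF6 arrays. These sums were lower in both arrays numbered 1 than in both numbered 2. Differences were positive for 9 of 9 genes, from 0.01 to 0.98 log2 units. In 2 of the 9 the groups did not overlap (16.0% of all genes were higher without overlap), and 5 were above background on all arrays. Markers of dividing progenitors summed to 1742 and 2841 (control) and 1708 and 3542 (PHF6 shRNA), lower in both arrays numbered 1 than in both numbered 2. Most of each sum was Vim alone, at 1252 and 2102 (control) and 1295 and 2726 (PHF6 shRNA). How far these cell types enter the differences below was not tested. In bulk RNA, fewer cells of a type and less RNA per cell cannot be told apart.

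The bases before the transcript start are shown for the genes with the largest differences, Nsg1 and Olfm3, each beside a relative that differed less, since these windows differ in makeup. Of the 10 genes, 7 have an entry in the RefSeq promoter table (build GRCr8), which Gria1, Gria2 and Gria3 do not. Each sequence is the 250 bases before the start, read 5′ to 3′ on the gene's strand, and capitals mark CpG dinucleotides.
Nsg1 (chr14:76860829-76861078, plus strand): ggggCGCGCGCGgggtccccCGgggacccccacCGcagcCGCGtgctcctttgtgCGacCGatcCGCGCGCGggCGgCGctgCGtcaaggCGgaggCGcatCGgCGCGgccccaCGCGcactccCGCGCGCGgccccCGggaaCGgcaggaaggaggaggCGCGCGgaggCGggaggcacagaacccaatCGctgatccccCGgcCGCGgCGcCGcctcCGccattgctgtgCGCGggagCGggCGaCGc
Nsg2 (chr10:16165916-16166165, minus strand): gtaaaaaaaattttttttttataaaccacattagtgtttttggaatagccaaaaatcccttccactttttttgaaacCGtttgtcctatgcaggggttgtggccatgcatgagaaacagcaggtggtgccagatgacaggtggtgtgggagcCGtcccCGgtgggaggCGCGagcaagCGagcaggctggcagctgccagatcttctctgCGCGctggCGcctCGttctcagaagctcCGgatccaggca
Olfm3 (chr2:205598709-205598958, plus strand): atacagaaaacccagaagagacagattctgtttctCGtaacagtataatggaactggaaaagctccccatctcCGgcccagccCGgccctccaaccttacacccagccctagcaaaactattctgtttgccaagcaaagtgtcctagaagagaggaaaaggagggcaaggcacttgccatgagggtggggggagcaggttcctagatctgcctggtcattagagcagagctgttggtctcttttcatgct
Olfm2 (chr8:27539662-27539911, minus strand): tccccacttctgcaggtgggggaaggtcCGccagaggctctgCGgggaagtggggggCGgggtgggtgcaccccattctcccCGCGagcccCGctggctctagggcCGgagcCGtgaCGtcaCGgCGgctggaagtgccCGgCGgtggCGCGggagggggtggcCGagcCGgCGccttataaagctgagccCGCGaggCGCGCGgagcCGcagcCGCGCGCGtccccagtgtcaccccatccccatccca
The Nsg1 window held 46 CpG and was 80.0% G and C. This is more CpG than 99.7% of all 33469 windows in the table hold, whose median was 5. The Nsg2 window held 11 CpG, the Olfm2 window 28 and the Olfm3 window 3. Windows not shown held 23 (Olfm1), 14 (Gria4) and 14 (Cacng8). Whether window makeup relates to the differences was not tested. Searched on both strands, the cAMP response element TGACGTCA was present in Olfm2 alone of the 4 windows shown and in 1.59% of all windows. The letters TATAAA were present in Nsg2 and Olfm2 and in 12.9% of all windows. The GC box GGGCGG was present in Nsg1 and Olfm2 and in 30.5% of all windows. The E-box CACGTG, held by 5.59% of all windows, was in none of the 4. A match describes letters in this window, not a working site, and the neurons may start these transcripts elsewhere.

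All 10 genes read above the background level on all 4 arrays. Nsg1 was 2.11-fold lower and Olfm3 2.35-fold higher in the PHF6 arrays, while the other 8 genes differed by at most 1.22-fold. The 2 groups did not overlap in 7 of the 10 genes, 3 higher (Gria4, Cacng8, Olfm3) and 4 lower (Nsg1, Nsg2, Olfm1, Olfm2) in the PHF6 arrays. Among all 17245 genes, 16.0% were higher and 21.7% lower without overlap. No gene on the arrays, the 10 included, passed limma's test with Benjamini-Hochberg adjustment over all genes at a threshold of 0.05 (0.0% called), and 1862 (10.8%) had an unadjusted p under 0.05. At least 2-fold without overlap were 19 genes higher (0.11% of all) and 10 lower (0.058%), with Olfm3 ranked 9 from the highest difference and Nsg1 ranked 7 from the lowest. As the genes were picked with these values known, nothing is read from their counts.

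**Figure D1:**
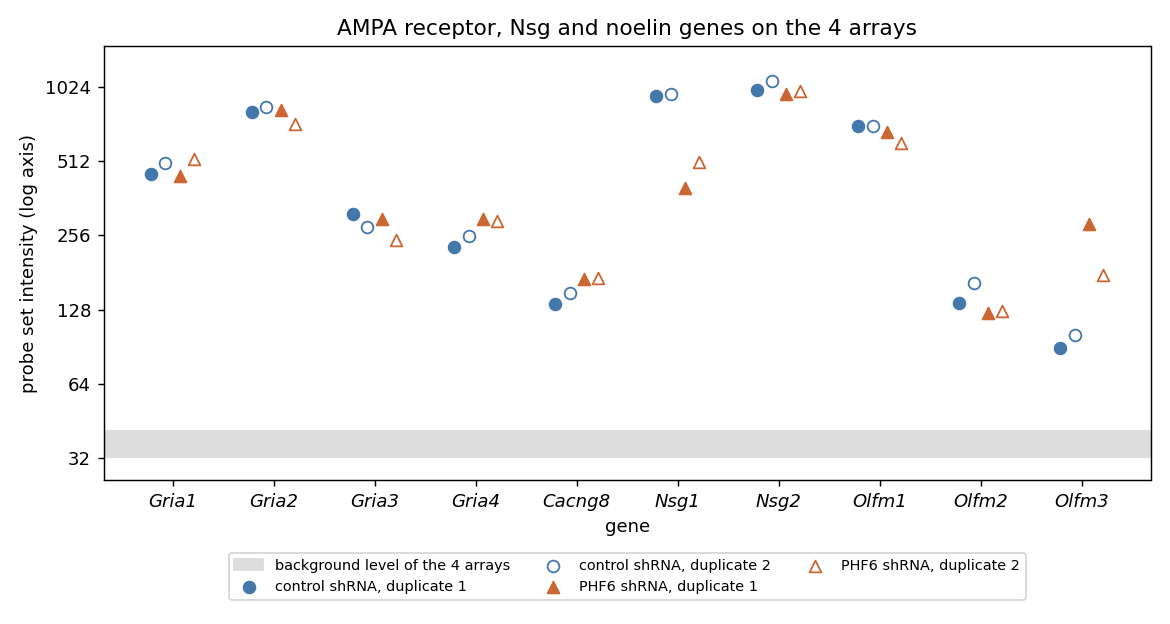
Probe set intensity (log axis) of the 10 genes on each array, circles for control shRNA, triangles for PHF6 shRNA, filled for duplicate 1 and open for duplicate 2; the grey band spans the background levels of the 4 arrays. Nsg1 at 398 and 507 lies far below its control arrays and Olfm3 at 284 and 177 above its own.

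Among the receptor subunits, Gria1 and Gria2, the major subunits of cortical excitatory neurons, showed little difference. Gria1, which encodes GluA1, read 453 and 502 under control shRNA and 446 and 521 under PHF6 shRNA, a difference of 0.02 ± 0.11 log2 units (limma SE, 2 arrays a group). The groups overlapped, and in both groups the array numbered 2 was the brighter. The 95% interval of the Gria1 difference, -0.27 to 0.30, leaves room for changes of either sign, and the sign turned when control duplicate 1 (-0.06) or PHF6 duplicate 2 (-0.10) was left out.

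Gria2, which encodes the subunit that sets calcium permeability, read 807 and 845 under control shRNA and 825 and 726 under PHF6 shRNA. The groups overlapped, since PHF6 duplicate 1 lay between the control arrays. The difference was -0.09 ± 0.10 log2 units, with a 95% interval from -0.34 to 0.16.

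Gria3, the X-linked subunit gene whose product pairs with GluA2, read 311 and 276 under control shRNA and 299 and 246 under PHF6 shRNA. The array numbered 1 was the brighter in both groups, opposite to Gria1, and the groups overlapped. Its difference of -0.11 ± 0.13 log2 units became 0.03 without PHF6 duplicate 2. The second, dimmer Gria3 probe set gave 84.5 and 88.3 against 82.1 and 79.5, a difference of -0.10.

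Gria4, which encodes GluA4, a subunit of early development and of interneurons, was the one subunit gene whose groups did not overlap. It read 231 and 255 under control shRNA and 299.5 and 292 under PHF6 shRNA. Both PHF6 arrays were brighter than both control arrays, by 0.28 ± 0.09 log2 units or 1.22-fold. Leaving out each array in turn gave 0.21 to 0.36.

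A log2 ratio to Gria2 on the same array removes a scale factor common to both probe sets, but not a shift that depends on intensity. The ratio of Gria4 to Gria2 was -1.81 and -1.73 under control shRNA and -1.46 and -1.32 under PHF6 shRNA. The shift of 0.38 includes Gria2's own difference of -0.09, for which the groups overlapped. The Gria1 to Gria2 ratio shifted by 0.11 and overlapped between the groups. The Gria3 to Gria2 ratio shifted by -0.02 and overlapped too. Such a ratio shows unequal change of a pair of probe sets and does not compare their transcript amounts.

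Cacng8, which encodes the TARP gamma-8 that supports surface delivery and slows closing of the channel, read 135 and 149 under control shRNA and 170.4 and 173 under PHF6 shRNA. Both PHF6 arrays were brighter than both control arrays. The difference was 0.28 ± 0.09 log2 units, or 1.21-fold, and ran from 0.20 to 0.35 when an array was left out. Cacng7, a TARP gene that lies next to Cacng8, differed by -0.06 ± 0.09 log2 units with overlapping groups, and Cacng2 (stargazin), the founding TARP, by 0.19 ± 0.09 without overlap. Within arrays the Cacng8 to Cacng7 log2 ratio was -2.61 in both control arrays against -2.29 and -2.27 in the PHF6 arrays, a shift of 0.33. The Cacng8 to Cacng2 log2 ratio shifted by 0.09, from -0.67 and -0.66 to -0.62 and -0.54.

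The pair of Nsg genes, which encode related small membrane proteins of neuronal endosomes, parted. Nsg1 read 936 and 961 under control shRNA and 398 and 507 under PHF6 shRNA. The control arrays lay close together, and both PHF6 arrays were below both, duplicate 1 further than duplicate 2. In log2 units this was 9.89 ± 0.03 against 8.81 ± 0.25 (SD, n = 2 each). The difference was -1.08 ± 0.13 (limma SE) with a 95% interval from -1.41 to -0.75. Both are narrower than these SDs alone would give, since limma pools variance over genes. The interval takes no account of Nsg1 having been picked for its difference. Its stated coverage therefore does not hold for Nsg1, and its ends are not evidence of a difference. Leaving out each array in turn gave -1.25 to -0.90, where the sign was fixed because the groups do not overlap.

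Nsg2, whose product is also linked to AMPA receptor traffic, read 991 and 1079 under control shRNA and 961 and 986 under PHF6 shRNA. The groups did not overlap, but the nearest arrays were 991 and 986. The difference was -0.09 ± 0.09 log2 units, with a 95% interval from -0.31 to 0.13. The log2 ratio of Nsg1 to Nsg2 within an array was -0.08 and -0.17 under control shRNA and -1.27 and -0.96 under PHF6 shRNA, a shift of -0.99.

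The noelin genes differed in sign. Olfm1, noelin-1, which is abundant in cortical neurons, read 709 in both control arrays and 671 and 608 in the PHF6 arrays. Both PHF6 arrays were lower. The difference was -0.15 ± 0.09 log2 units, and its 95% interval ran from -0.38 to 0.08. Olfm2, noelin-2, read 136 and 165 under control shRNA and 124 and 127 under PHF6 shRNA, all of the latter lower. Its difference was -0.25 ± 0.12 log2 units, with a 95% interval from -0.54 to 0.04. It ranged from -0.39 to -0.12 when an array was left out.

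Olfm3, noelin-3 or optimedin, read 89.9 and 101 in the control arrays against 284 and 177 in the PHF6 arrays. Both PHF6 arrays exceeded both control arrays, with duplicate 1 well above duplicate 2. The means were 6.57 ± 0.12 and 7.81 ± 0.48 log2 units (SD, n = 2 each). The difference was 1.23 ± 0.23 (limma SE) with a 95% interval from 0.66 to 1.81. Both are narrower than these SDs alone would give, since limma pools variance over genes. The interval takes no account of Olfm3 having been picked for its difference. Its stated coverage therefore does not hold for Olfm3, and its ends are not evidence of a difference. Leaving out PHF6 duplicate 2 raised the difference to 1.58, and leaving out PHF6 duplicate 1 reduced it to 0.89. Relative to Olfm1 on the same array the shift was 1.39 log2 units, and relative to Olfm2 it was 1.49, where the ratio moved from -0.60 and -0.71 to 1.19 and 0.48.

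**Figure D2:**
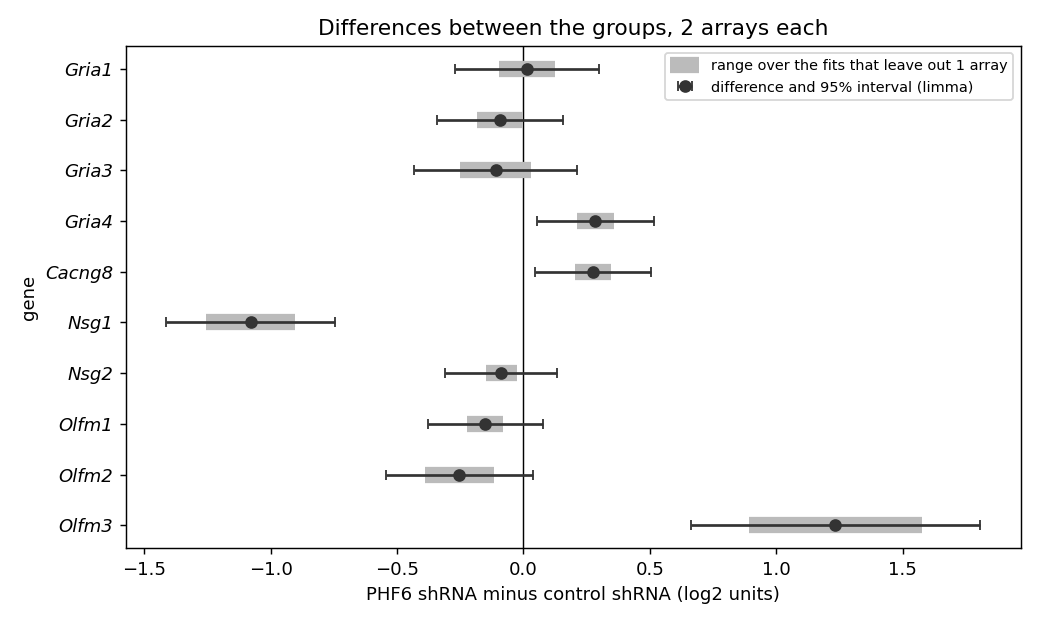
Difference between the groups for each gene in log2 units (points) with limma's 95% interval (black bars) and the range over the fits that leave out 1 of the 4 arrays (grey bars). Olfm3 at 1.23 and Nsg1 at -1.08 lie apart from the other genes, and the grey bars of Gria1 and Gria3 cross 0. The black bars take no account of Olfm3 and Nsg1 having been picked for their differences.

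By distance between log2 profiles centred on their means over the 4 arrays, the genes most like Olfm3 among 9526 above background on all arrays were Myof (distance 0.11), Opn3 (0.12), Kcna1 (0.28), Chml (0.29) and Prkx (0.31). Myof encodes a ferlin of membrane repair, Opn3 an opsin, Kcna1 a potassium channel and Prkx a protein kinase. Myof read 70.7 and 76.9 under control shRNA and 221 and 149 under PHF6 shRNA, with PHF6 duplicate 1 above duplicate 2, as for Olfm3. The genes most like Nsg1 were Hivep1 (0.13), Dnm3 (0.15), Elavl3 (0.19), Ywhag (0.22) and Nt5dc3 (0.22). Hivep1 encodes a zinc-finger transcription factor, Dnm3 a dynamin, Elavl3 a neuronal RNA-binding protein and Ywhag a 14-3-3 protein. With 4 arrays such likeness mostly restates the group difference.

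**Figure D3:**
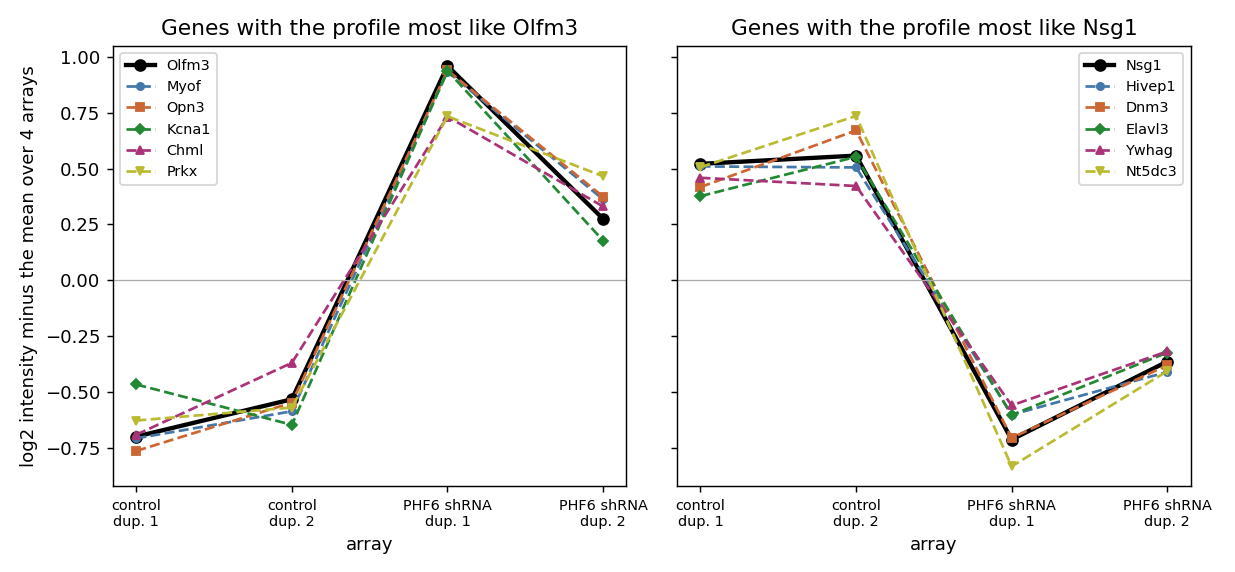
Log2 intensity minus the gene's mean over the 4 arrays for Olfm3 (left) and Nsg1 (right), black, and the 5 genes with the most alike profile, coloured dashed lines. The Olfm3-like genes peak in PHF6 duplicate 1, and the Nsg1-like genes are lower in both PHF6 arrays.

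The measured genes next to the 10 on the chromosome (order from GRCr8) showed no difference of 2-fold. Such a difference without overlap was rare among all genes (0.11% higher, 0.058% lower). The 20 neighbours ranged from -0.53 to 0.12 log2 units, with a median of -0.03. Without overlap, 1 was higher and 5 lower, where all genes gave 16.0% higher and 21.7% lower. Several neighbours, Nmur2 and Casp1 among them, were above background on no array, so their small differences say little. The neighbours of Olfm3, Col11a1 and S1pr1, differed by 0.01 ± 0.10 and -0.06 ± 0.20 log2 units with overlapping groups. Beside Nsg1, Zbtb49 differed by -0.03 ± 0.08. The gene on the other side, Stx18, which encodes a SNARE of the endoplasmic reticulum, was lower without overlap, at 45.7 and 55.9 against 32.7 and 37.5, a difference of -0.53 ± 0.13, with 1 of these readings below its array's background level.

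Beyond the 10 genes, 73 measured genes of 4 lists covering the same complex were compared. In the reported fit, which has no replicate block, 0 passed limma's adjusted threshold of 0.05. A limma unadjusted p under 0.05 was reached by 15, 9 higher and 6 lower in the PHF6 arrays. Over all 17245 genes 1862 (10.8%) stood at that level, 565 higher and 1297 lower. With a replicate block on the duplicate number, 7 of the 73 passed the adjusted threshold, beside 909 of all genes. The labels do not say that equal numbers pair the arrays. The median difference of all genes was -0.01 log2 units, with 8222 positive and 9023 negative.

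Of 22 auxiliary subunit and assembly genes 20 were measured, 10 positive and 10 negative, with a median of 0.01 log2 units. Without overlap, 8 were higher and 3 lower in the PHF6 arrays, where all genes gave 16.0% higher and 21.7% lower. A pair of Shisa (CKAMP44 family) auxiliary subunit genes lay at opposite ends. Shisa7 read 253 and 318 under control shRNA and 509 and 427 under PHF6 shRNA, a difference of 0.72 ± 0.15 log2 units (limma adjusted p = 0.24). Shisa6 read 123 and 116 against 68.2 and 86.0, a difference of -0.64 ± 0.13 (limma adjusted p = 0.24). In each of them both PHF6 arrays lay outside the control arrays, and neither passed in the reported fit. Both passed when a replicate block was fitted (limma adjusted p = 0.024 for Shisa7 and 0.019 for Shisa6). Sacm1l, a phosphoinositide phosphatase found with newly made receptors, differed by -0.34 ± 0.09, and Cpt1c, which acts on receptor assembly in the endoplasmic reticulum, by 0.30 ± 0.11. The cornichon gene Cnih2 differed by -0.09 ± 0.10 with overlapping groups.

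Of 33 scaffold and trafficking genes 29 were measured, 12 positive and 17 negative, with a median of -0.12 log2 units that became -0.04 when arrays were scaled by cyclic loess. Without overlap, 15 were lower and 8 higher in the PHF6 arrays, where all genes gave 21.7% lower and 16.0% higher. Pick1, a PDZ and BAR domain protein that binds the GluA2 tail, read 192 and 209 under control shRNA and 169 and 115 under PHF6 shRNA, a difference of -0.52 ± 0.19 (limma adjusted p = 0.41). Grip1, which binds the same tail, differed by 0.08 ± 0.20 with overlapping groups. Caly (calcyon), the third member of the Nsg family, read 155 and 159 against 207 in both PHF6 arrays, a difference of 0.40 ± 0.08 (limma adjusted p = 0.24), opposite in sign to Nsg1. Stx12, the endosomal syntaxin that partners the Nsg1 protein, differed by -0.19 ± 0.09 and the recycling GTPase gene Rab4a by -0.39 ± 0.09, both without overlap. Camk2a, the kinase that phosphorylates GluA1, differed by 0.57 ± 0.16, and Akap5, an anchor for kinases at the receptor, by 0.47 ± 0.17 at readings close to background (28.7 and 33.8 against 50.1 and 37.1). All of them missed limma's adjusted threshold in the reported fit, which has no replicate block. With a block, Caly, Rab4a and Camk2a passed (limma adjusted p = 0.029, 0.036 and 0.013), though the labels do not say that equal duplicate numbers pair the arrays.

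Of 11 genes for extracellular partners 9 were measured, 5 positive and 4 negative, with a median of 0.12 log2 units that was -0.08 without PHF6 duplicate 1. C1ql3, a secreted synaptic organiser, read 165 in both control arrays and 305 and 195 in the PHF6 arrays, a difference of 0.56 ± 0.21. The neuronal pentraxin receptor gene Nptxr differed by -0.23 ± 0.10 and Lrrc4, a synaptic adhesion protein gene, by -0.16 ± 0.10, both without overlap. Nptx1, a secreted pentraxin that clusters AMPA receptors, differed by 0.17 ± 0.18 with overlapping groups.

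All 15 genes with an olfactomedin domain or for noelin partners were measured, 8 positive and 7 negative, with a median of 0.01 log2 units, or -0.0026 after a further quantile normalization. Of these, 4 were above background on no array, among them Olfm4, the remaining noelin-type gene of the list, at 23.0 to 25.8. Flrt3, a membrane protein that binds latrophilins and Unc5 receptors, read 253 and 286 under control shRNA and 165 and 184 under PHF6 shRNA, a difference of -0.63 ± 0.11 (limma adjusted p = 0.23, or 0.0077 with a replicate block). Its relative Flrt1 differed by 0.35 ± 0.10. Among the latrophilins, receptors that carry an olfactomedin domain, Adgrl2 differed by -0.50 ± 0.21 without overlap (limma adjusted p = 0.48, or 0.028 with a replicate block), Adgrl1 by -0.20 ± 0.21 and Adgrl3 by 0.09 ± 0.10. Rtn4rl1, a relative of the Nogo receptor, differed by 0.29 ± 0.08 and the Nogo receptor gene Rtn4r, whose product noelin-1 binds, by -0.10 ± 0.12.

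**Figure D4:**
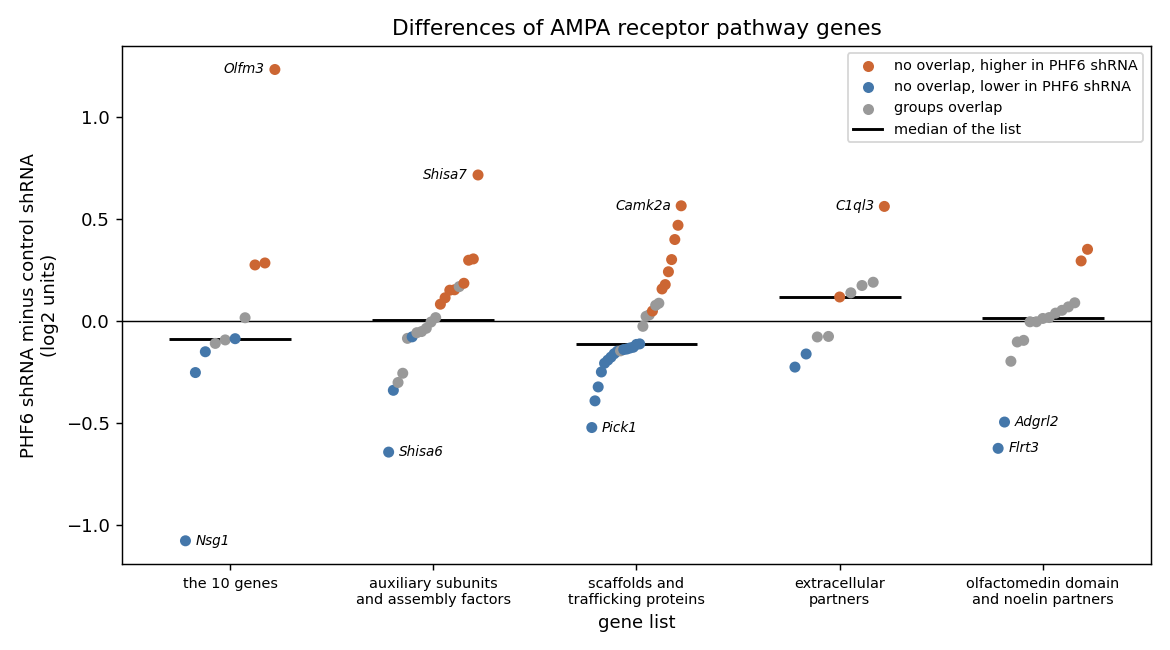
Difference between the groups in log2 units for the 10 genes and for the 20, 29, 9 and 15 measured genes of the 4 pathway lists, with each list's median as a black line; colours show whether the 2 groups of arrays overlap. List medians lie between -0.12 and 0.12, and no pathway gene reaches the size of Nsg1 or Olfm3.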

How the data were processed

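The authors deposited probe set intensities made with RMA (background correction, quantile normalization, probe set summary), per the submitters' processing notes, with the version and settings not given in the sources used here. Per the labels' protocols, biotin-labelled sense target was put on Affymetrix arrays. The deposited intensities range between 8.57 and 6121, which is a linear scale, and were converted to log2. RMA compresses differences of dim probe sets, and 4 arrays limit the precision. The platform annotation gives 1 gene symbol for 18644 of 29214 rows, several for 962 and none for 9608. Symbols were updated through gene identifiers to RefSeq GRCr8 for 18460 rows, and the brightest probe set was kept for each of 17245 genes.

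Groups follow the sample titles. The comparison used lmFit and eBayes of limma 3.58.1 (R 4.3.3), 2-sided and without covariates, and p-values were adjusted by Benjamini-Hochberg across the 17245 genes. In eBayes each gene's variance is drawn toward a value shared by all genes (prior degrees of freedom 3.46). SEs and intervals therefore rest partly on other genes. The fit was tested on simulated data with noise drawn independently for each array, so this cannot show how it behaves if same-numbered arrays share a source. The 10 genes, the lists and the rules were chosen with earlier results of these data known. In each pathway list, up to 4 genes past the threshold or, failing that, those with the largest differences among genes above background on at least 2 arrays and without overlap were named. Others were named for their role. Alternatives were other scalings, a replicate block, leaving out each array, filters on dim genes, the mean of probe sets, a variance trend and an adjusted p under 0.10. List genes without a named row were not analysed here.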

Additional observations from a re-analysis of the deposited data

How the results depend on the processing

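No gene reached an adjusted p under 0.05 in the reported fit, nor under the other scalings, filters, probe set rule, variance trend or an adjusted p under 0.10. A replicate block on the duplicate number brought 909 genes past it, including Nsg1 and Olfm3, which were picked on this same contrast, and 7 of the 73 pathway genes (Shisa6, Shisa7, Caly, Rab4a, Camk2a, Adgrl2, Flrt3). The labels do not say whether equal numbers mean a shared culture, though the sample descriptions repeat the number after the letters exp. The reported fit takes no account of such a pairing. Deviations of same-numbered arrays correlated at 0.57 across genes. Background levels were 41.2 (control) and 39.9 (PHF6 shRNA) in the arrays numbered 1. In those numbered 2 they were 32.5 and 32.7. Leaving out 1 array gave 0 to 90 genes past the threshold, with 90 without PHF6 duplicate 2, Nsg1 and Olfm3 among them, and 2 without PHF6 duplicate 1. Of the 10 genes, 8 kept the sign of their difference under all 11 alternatives run for them, though several of these could not turn it. The replicate block and the filters on dim genes leave a gene's difference as it is. So does the mean of probe sets for a gene with 1 probe set. Where the groups do not overlap, leaving out an array cannot turn the sign either. Over the fits that left out an array Gria1 ran from -0.10 to 0.13, negative when control duplicate 1 (-0.059) or PHF6 duplicate 2 (-0.095) was dropped, and Gria3 from -0.25 to 0.032, positive when PHF6 duplicate 2 was dropped. The median of the auxiliary subunit list was 0.053 after a further quantile normalization and 0.072 under cyclic loess, and 0.017 to 0.075 when an array was left out. The median of the scaffold and trafficking list was -0.052 and -0.041 under those scalings, and -0.12 to -0.060 when an array was left out. The median of the extracellular partner list was 0.031 over genes above background on at least 2 arrays, and -0.083 to 0.13 when an array was left out, and that of the olfactomedin list was -0.053 to 0.032. The cause of these shifts was not tested.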
